A study of Mus musculus with 10 samples.

Results

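The nectin genes Nectin1, Nectin2, Nectin3 and Nectin4, the P-cadherin gene Cdh3 and the catenin genes Ctnna1, Ctnnb1 and Ctnnd1 are described here by the p63 binding sites in and around them in mouse keratinocytes. A peak was taken as a member's peak when its midpoint lay inside the annotated gene or within 50 kb of either end, which gave 31 of the 8451 peaks in the list (0.367%) for these 8 of 21775 protein-coding genes. Chromatin immunoprecipitation followed by sequencing (ChIP-seq) of the transcription factor p63, with the antibody 4A4, was done in the keratinocyte lines MK1 and MK2, which the submitters call similar; no treatment, strain or allele is labelled. The list used here joins both p63 libraries by an irreproducible discovery rate step and holds positions only, so there is no peak height, no depth and no spread between MK1 and MK2. ChIP libraries of 3 histone marks and input chromatin from the same lines were not analysed here. Peak positions measure no expression, so the keratinocyte label could not be checked against marker genes.

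Nectins are immunoglobulin-like adhesion molecules that meet across the gap between neighbouring cells and are tied to the actin skeleton by afadin. Classical cadherins such as P-cadherin and E-cadherin form the adherens junction beside them. Their tails bind β-catenin and p120-catenin, and α-catenin links β-catenin to actin. P-cadherin marks the basal layer of the epidermis and the hair germ. p63, a relative of p53, is made in the same cells and is needed to keep them. In humans, mutations of NECTIN1, NECTIN4 or CDH3 cause ectodermal dysplasia syndromes, as do mutations of the p63 gene itself.

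Peaks lay at 7 of the 8 genes (87.5%, 95% Wilson interval 52.9 to 97.8), and inside 6 of them (75.0%, interval 40.9 to 92.9). Among all protein-coding genes 40.7% had a peak in the same window and 13.4% had one inside. The members are longer than most genes, with a median of 58.2 kb against 17.2 kb, and a longer gene has a wider window. Among the 8951 coding genes of 18.1 to 135.9 kb, the members' range of length, 46.4% had a peak in the window and 20.3% had one inside. At least 3 peaks were found at 5 of the 8 members, while 11.5% of coding genes in that range of length and 9.69% of all coding genes had as many. Intervals cover counting error only, and with 8 genes they are wide.

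The 31 peaks were unevenly shared. Nectin1 held 11, Cdh3 5, Ctnnb1 and Ctnnd1 4 each, Nectin4 3, Nectin2 and Ctnna1 2 each, and Nectin3 none. Together Nectin1 and Cdh3 accounted for 16 peaks (51.6%) and for 11 of the 16 that lay inside a member. Of the 15 peaks in flanks, 8 had a nearer protein-coding gene than the member, and 5 of those lay inside that other gene. The annotation used gives the extent of genes and, for some, the start site, but not exons, so exon, intron and untranslated region could not be told apart. "Lower" and "upper" below mean the end with the smaller and the larger coordinate on mm10.

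**Figure D1:**
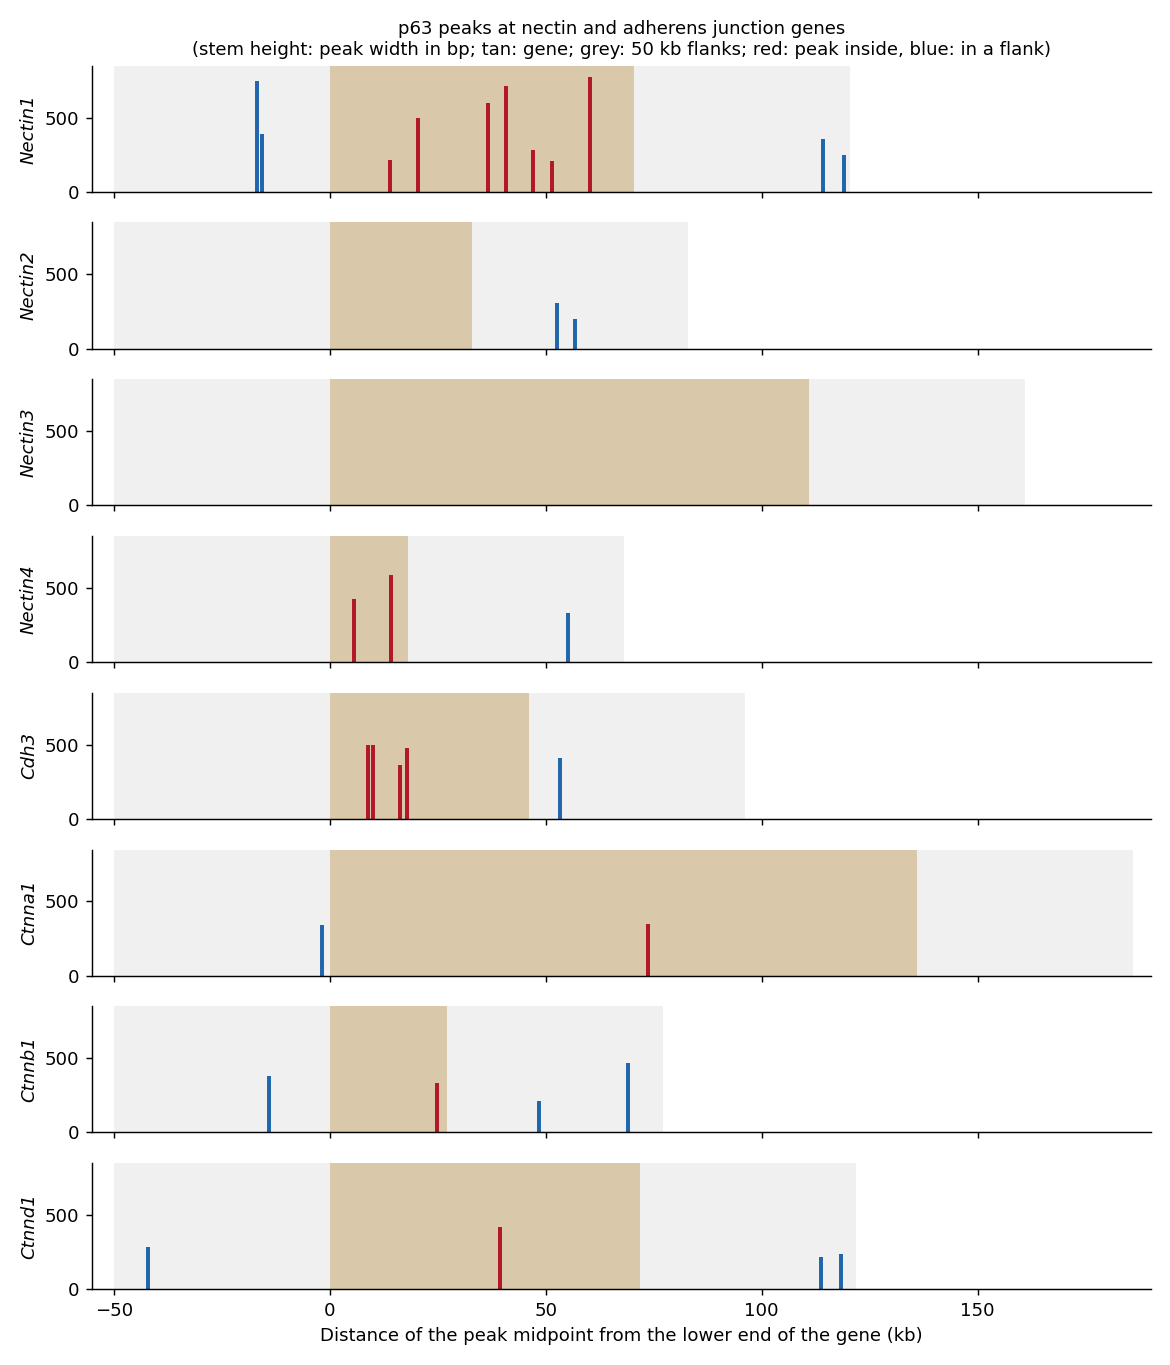
Position and width of each p63 peak by gene. The x axis is the distance of the peak midpoint from the lower end of the gene in kb, the height of a stem is the width of the peak in bp, tan marks the gene and grey the 50 kb flanks. Nectin1 holds 7 peaks inside and 4 in its flanks, Cdh3 holds 4 close together inside, and Nectin3 holds none.

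Nectin1 encodes nectin-1, an adhesion receptor of the epidermis and an entry receptor of herpes simplex virus. The gene (ID 58235) spans 43737075 to 43807461 on chromosome 9, or 70.4 kb. Its 7 inner peaks were at chr9:43750905-43751118, chr9:43757189-43757688, chr9:43773513-43774114, chr9:43777497-43778211, chr9:43784047-43784325, chr9:43788314-43788523 and chr9:43796850-43797622. They began 13.94 kb above the lower end and stopped 10.22 kb short of the upper end, so that neither end of the gene carried a peak. A further pair lay below the gene, at 16.89 and 15.72 kb, at chr9:43719813-43720559 and chr9:43721158-43721547. The last pair lay above it, at 43.82 and 48.63 kb, at chr9:43851102-43851457 and chr9:43855972-43856217.

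The Nectin1 peaks formed 4 groups when midpoints within 10 kb were joined. The largest was a run of 5 inner peaks over 24.11 kb, from 43773513 to 43797622, with steps of 4.04, 6.33, 4.23 and 8.82 kb. Runs of 5 or more peaks made up 19 of the 7060 groups of the whole list (0.269%), and the longest run anywhere had 7. A lone peak counts as a group here, so this is a share of groups and not of peaks. The other inner pair was 6.43 kb apart, the lower pair 1.17 kb and the upper pair 4.82 kb. Between the run of 5 and the upper pair lay 53479 bp without a peak.

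The Nectin1 peaks ranged from 210 to 773 bp in width, and 4 of the 11 lay between the quartiles of the list, 242 and 392 bp. The widest, at 60.16 kb from the lower end, had 773 bp, and 98.7% of all peaks were narrower. The peaks at 40.78 kb, at 36.74 kb and 16.89 kb below the gene had 715, 602 and 747 bp, each wider than 95.3% of the list or more. In the same run of 5, the peaks at 47.11 and 51.34 kb had 279 and 210 bp, and 40.1% and 10.9% of the list were narrower. Wide and narrow peaks thus lay next to each other inside the gene.

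For all 11 peaks Nectin1 was the nearest protein-coding gene, and no other coding gene had any of them within 50 kb. Of the other protein-coding genes, 1 had more peaks in its window. Against 1863 coding genes whose length was within 25% of that of Nectin1, 0 had more peaks in the window and 0 had more inside, where the highest count among them was 6. Of all coding genes, 14 had more than 7 inside. Another 2 peaks lay at 50 to 100 kb from the gene, the nearer at 43673300 to 43673824, 63.51 kb below it, which brings the count to 13 within 100 kb.

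Non-coding transcripts are annotated across the same stretch. Gm46108, a long non-coding RNA of the minus strand, spans 43738859 to 43790995 and thus most of Nectin1, and 6 of the 7 inner peaks overlap it. Gm30015, another of the minus strand, spans 43716841 to 43738450 and holds the lower pair. The promoter below belongs to one of the 3 annotated starts of Gm46108 and is shown because it is the only promoter in the RefSeq table within 1 kb of a member peak. It covers chr9:43785015-43785314 on the minus strand (GRCm38.p6, the same coordinates as mm10), from 250 bases before the start site at 43785064 to 50 after it. Capitals mark 2 matches to the E-box letters CANNTG and 1 to the GC box letters GGGCGG, searched on both strands.

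Gm46108 promoter: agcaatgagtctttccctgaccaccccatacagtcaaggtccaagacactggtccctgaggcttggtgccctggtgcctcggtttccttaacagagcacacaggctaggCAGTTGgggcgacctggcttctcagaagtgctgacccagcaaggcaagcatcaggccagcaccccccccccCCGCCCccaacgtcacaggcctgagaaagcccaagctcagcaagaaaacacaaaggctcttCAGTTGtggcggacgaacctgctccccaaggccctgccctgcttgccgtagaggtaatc

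The peak at 43784047 to 43784325 ended 689 bp from this promoter, and its midpoint was 0.88 kb from the start site. The E-box letters occur in 72.3% and the GC box letters in 35.7% of the 32851 promoters of the table, so neither match is rare. A pair of the p53-family core letters CNNG with 6 bases between them, found in 70.2% of promoters, and the AP-1 letters TGANTCA, found in 7.81%, did not occur in this window.

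Nectin4 encodes nectin-4, which pairs with nectin-1 between epidermal cells. The gene (ID 71740) spans 171370173 to 171388287 on chromosome 1 and, at 18.1 kb, is the shortest member. It lies on the plus strand and starts at its lower end. Its inner peaks, at chr1:171375672-171376096 and chr1:171384141-171384727, had midpoints 5.71 and 14.26 kb after the start and were 8.55 kb apart. With 425 and 587 bp they were wider than 80.9% and 94.7% of the list. For the 5 members with a start site in the RefSeq table, no peak came closer to a start than the first of these.

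Per length, the Nectin4 gene body held 11.04 peaks per 100 kb, the Nectin1 body 9.945 and the Cdh3 body 8.684. The values were 3.69 for Ctnnb1, 1.39 for Ctnnd1, 0.736 for Ctnna1 and 0 for Nectin2 and Nectin3. These rates rest on few peaks, 2 in Nectin4, 7 in Nectin1 and 4 in Cdh3, so their order is uncertain. No such rate is given for all coding genes. Of 3031 coding genes of like length, 13 had more peaks inside than Nectin4. The third Nectin4 peak, at chr1:171425095-171425428, was 36.97 kb above the gene, 334 bp wide and nearest to Tstd1, which encodes a sulfurtransferase. The neighbourhood is gene-dense: each inner Nectin4 peak lay within 50 kb of 8 coding genes, Nectin4 included. A peak 50.23 kb above Nectin4, inside the tight junction gene F11r, fell just outside the window, and the farthest peak counted for any member lay 48.63 kb away, at Nectin1.

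Nectin2 encodes nectin-2, a widely expressed nectin that also serves as a ligand of immune receptors. The gene (ID 19294) spans 19716644 to 19749573 on chromosome 7 and starts at its upper end, on the minus strand. No peak lay inside it. Its 2 peaks, at chr7:19769039-19769343 and chr7:19773251-19773450, were 19.62 and 23.78 kb upstream of the start. They were 305 and 200 bp wide and 4.16 kb apart. Both were nearer to Bcam, which encodes a laminin receptor of basal cells: the first was inside it, 1.34 kb from an end, and the second 2.82 kb beyond it.

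Nectin3 encodes nectin-3, a favoured partner of nectin-1 across cell contacts. The gene (ID 58998) spans 46387665 to 46498535 on chromosome 16 and is 110.9 kb long. It was the only member with no peak inside or within 50 kb, and none lay within 100 kb either. The nearest was 314.04 kb away, at 46073529 to 46073723, inside Cd96. Of 1415 coding genes of like length, 52.2% had a peak in their window, so a gene of this size without one is common. Depth is unknown, so the absence of a listed peak does not show that p63 was absent.

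Cdh3 encodes P-cadherin. The gene (ID 12560) spans 106510852 to 106556911 on chromosome 8, or 46.1 kb. Its 4 inner peaks stood in 2 close pairs, at chr8:106519379-106519874 and chr8:106520499-106520997 and at chr8:106526950-106527314 and chr8:106528539-106529016. The pairs were 1.12 and 1.65 kb apart inside and 6.38 kb from each other, so that all 4 lay in 9.64 kb. They sat between 19.1% and 38.9% of the way along the gene from its lower end. Groups of 4 or more peaks were 67 of 7060 in the list (0.949%), lone peaks included as groups.

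The Cdh3 peaks were alike in width, in contrast with those of Nectin1. The inner ones had 496, 499, 365 and 478 bp and the fifth, 7.13 kb above the gene at chr8:106563836-106564244, had 409 bp. All 5 were wider than the list median of 305 bp. Within 25% of the length of Cdh3 there were 2410 other coding genes, of which 3 had more peaks inside and 19 had more in the window.

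Cdh1, which encodes E-cadherin, follows Cdh3 on the chromosome after a gap of 46.4 kb and is not a member. The fifth Cdh3 peak lies in that gap, 39.31 kb from Cdh1, and counts for both genes. Cdh1 itself held 1 peak inside its 66.9 kb, at chr8:106646757-106647105, 43.58 kb from its lower end and 349 bp wide. The other peak in the Cdh1 window lay 48.16 kb above it, inside Tango6. From 50 kb below Cdh3 to 50 kb above Cdh1 there were 7 peaks, of which 4 were inside Cdh3 and 1 inside Cdh1.

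Ctnnb1 encodes β-catenin, which joins cadherin tails to α-catenin and also carries Wnt signals to the nucleus. The gene (ID 12387) spans 120933400 to 120960507 on chromosome 9 and lies on the plus strand, with annotated starts at 120933400 and 120933578. Of its 4 peaks, 1 was inside, at chr9:120958104-120958439, 2.24 kb before the downstream end and 91.8% of the way along the gene. Another lay 14.14 kb upstream of the start, at chr9:120919075-120919451. The other 2 lay 21.32 and 41.90 kb beyond the downstream end, at chr9:120981725-120981934 and chr9:121002170-121002638, and both were inside Ulk4, a kinase family gene. The 4 peaks had 377, 336, 210 and 469 bp in order of position and were at least 20.57 kb apart.

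Ctnnd1 encodes p120-catenin, which keeps cadherins at the cell surface. The gene (ID 12388) spans 84587096 to 84658977 on chromosome 2 and lies on the minus strand, with starts at 84658977 and 84650740. Its inner peak, at chr2:84626361-84626776, was 416 bp wide and 24.17 kb from the nearer start. A peak 42.16 kb beyond the downstream end, at chr2:84544794-84545076, had Ctnnd1 as its nearest coding gene. The remaining pair, at chr2:84700730-84700946 and chr2:84705277-84705511, lay 41.86 and 46.42 kb upstream and inside Zdhhc5, which encodes a palmitoyltransferase. These 2 were narrow, at 217 and 235 bp, and 4.56 kb apart.

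Ctnna1 encodes α-catenin of epithelia. The gene (ID 12385) spans 35118902 to 35254776 on chromosome 18 and, at 135.9 kb, is the longest member. One of its 2 peaks lay near the middle, 73.73 kb from the lower end, at 35192456 to 35192805. The other lay 1.91 kb below the gene, at 35116822 to 35117164, where the predicted coding gene Gm46617 was nearer, at 0.31 kb. No other peak came within 1.91 kb of a member's end. They were 350 and 343 bp wide and 75.64 kb apart, and 204 of 1136 coding genes of like length had more peaks.

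**Figure D2:**
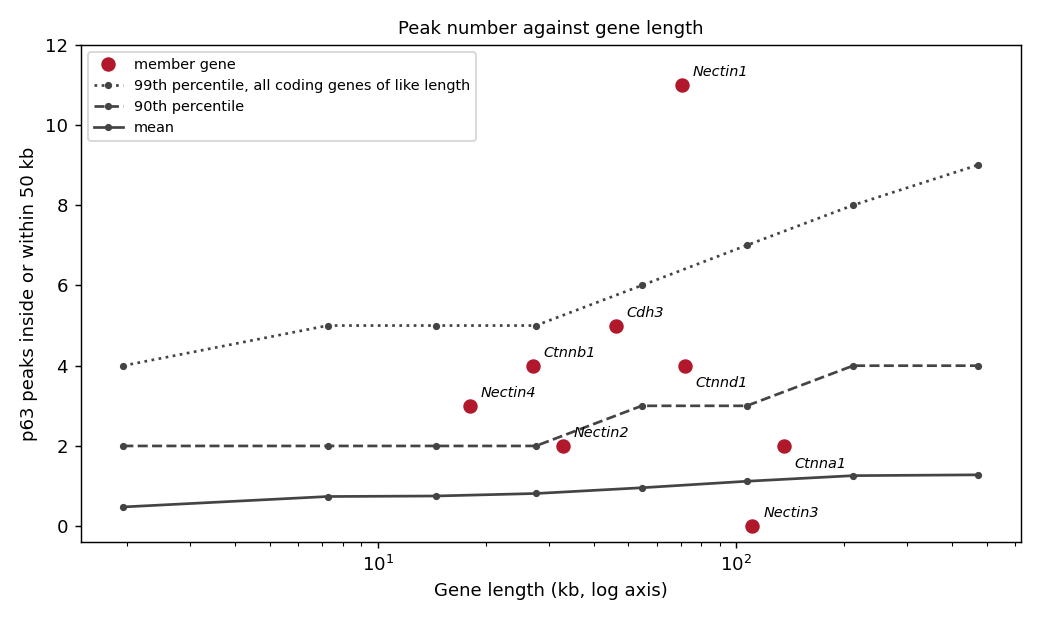
Number of p63 peaks inside or within 50 kb of a gene (y axis) against gene length in kb (x axis, log scale). Red points are the 8 members and grey lines give the mean and the 90th and 99th percentiles over all protein-coding genes in 8 classes of length. Nectin1, with 11 peaks, lies above the 99th percentile and Nectin3, with none, lies below the mean.

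The gene with a pattern most like that of Nectin1, by the number of peaks inside and in the flanks, was Pkp1, which encodes the desmosomal protein plakophilin 1. Pkp1 had 6 peaks inside and 4 in its flanks, against 7 and 4 for Nectin1, in a gene of 47.8 kb. Next came Bcar3 with 5 and 4 and Zmynd8 with 7 and 2, genes of 110.4 and 114.8 kb. Likeness here is the sum of the absolute differences of the counts, which was 1 for Pkp1 and 2 for the others, and it rests on 1 list of peaks.

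The 31 peaks were 200 to 773 bp wide. Their median was 365 bp and their quartiles were 281 and 487 bp, against a median of 305 bp and quartiles of 242 and 392 bp for the whole list. The 95% interval of the members' median was 305 to 469 bp, and its lower end equals the list median. It treats the 31 peaks as independent, which neighbouring peaks are not, so it can be too narrow. Of the 31, 21 (67.7%) were wider than the list median, and 5 (16.1%) reached the list's 90th percentile of 508 bp. Those 5 were the 4 widest of Nectin1 and the wider inner peak of Nectin4. Without Nectin1 the median was 357.5 bp. Peaks inside members had a median of 451.5 bp and peaks in flanks one of 334 bp. Where another coding gene was nearer than the member, the median was 270 bp, and where the member was nearest it was 409 bp. These are descriptions of few peaks, and no difference between them was tested.

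**Figure D3:**
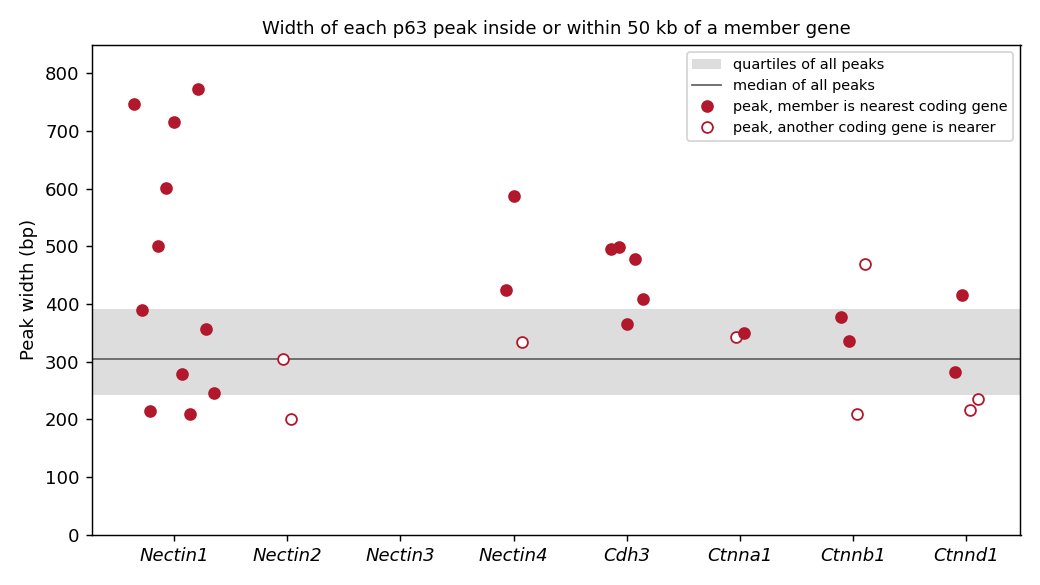
Width in bp (y axis) of each p63 peak at the member genes (x axis). Filled points are peaks for which the member is the nearest protein-coding gene, open points are peaks nearer to another, and the grey band and line give the quartiles and median of all 8451 peaks. The Nectin1 points run from 210 to 773 bp, the Cdh3 points from 365 to 499 bp.

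Spacing varied among the members too, and the comparison that follows was drawn up after the values were seen. Nectin1, Nectin4 and Cdh3 had 19 peaks, 13 of them inside the gene, and 11 of their 16 distances between neighbouring peaks were at most 10 kb. Most of these distances were those of Nectin1, and the comparison was not repeated without it. Nectin2, with 2 peaks 4.16 kb apart and 0 inside, is in neither group. The 3 catenin genes had 10 peaks, 3 of them inside, and 1 of their 7 distances was at most 10 kb, namely that of the pair inside Zdhhc5. The median of these distances between neighbouring peaks was 39.01 kb at the catenin genes. The distance to the nearest peak, given below, takes the smaller of the distances on either side. It is therefore a smaller measure than 39.01 kb. Each catenin gene thus held 1 inner peak that stood alone. Over all members, 21 of the 31 peaks (67.7%) had another peak within 10 kb, against 2459 of the list (29.1%), and the median distance to the nearest peak was 4.82 kb against 28.4 kb. Nectin1 alone gives 11 of the 31: of the other 20 peaks, 10 had another within 10 kb, and their median distance to the nearest peak was 10.9 kb. No test was made because neighbouring peaks are not independent.

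**Figure D4:**
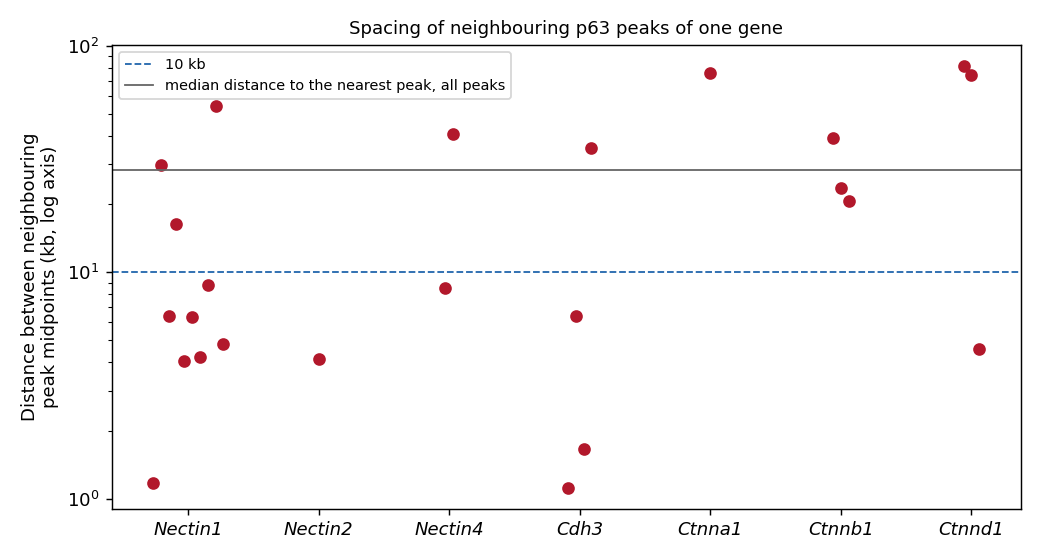
Distance in kb (y axis, log scale) between the midpoints of neighbouring p63 peaks of each gene (x axis). Each point is 1 distance, the dashed line marks 10 kb and the solid line the median distance of any peak in the list to its nearest neighbour, 28.4 kb. The line takes the smaller of the distances on either side of a peak, so it is not a like measure for the points. The Cdh3 and Nectin1 points reach down to 1.12 and 1.17 kb, and Nectin3 has no peak to show.

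No peak lay within 1 kb of an end of a member gene, and 3 lay within 5 kb, at Nectin4, Ctnna1 and Ctnnb1. The RefSeq promoter table held 7 promoters of 5 members, and no peak came closer than 5.71 kb to their start sites. The 2 windows of Ctnnb1 overlap, so they share letters, and matches are counted here by gene. Counts by promoter are added, since the shares over the whole set are by promoter. The paired CNNG letters described above occurred at 4 of the 5 genes, Nectin2, Nectin3, Ctnnb1 and Ctnnd1 (1 of its 2 promoters). By promoter they occurred in 5 of 7, against 70.2% of all promoters. The E-box letters occurred at 3 of the 5 genes and the GC box letters at 3. By promoter they occurred in 3 and 4 of 7, against 72.3% and 35.7% of all promoters. The AP-1 letters, at 7.81% of all promoters, occurred at 0 of the 5 genes. TATAAA, at 13.6%, occurred at 2 genes, Ctnnb1 and Ctnnd1, each at 1 of its 2 promoters, thus in 2 of 7 promoters. A match is a description of the letters in the window and marks no site.

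Of 26 further genes of the adherens junction, 21 had a peak inside or within 50 kb (80.8%, interval 62.1 to 91.5), against 40.7% of all coding genes, and 19 (73.1%) had one inside, against 13.4%. The median length of that list is 101.0 kb, and among the 1802 coding genes over 80 and up to 160 kb long 51.2% had a peak in the window and 33.6% had one inside. Actn4 and Actn1, which encode actin cross-linking actinins, had 6 and 5. Arvcf, a relative of p120-catenin, had 4. Afdn, the gene of afadin, which anchors the nectins, had 3, of which 2 were inside. The 5 genes with none were Cdh2, the gene of N-cadherin, the catenin genes Ctnna2 and Ctnnd2, Vasp, which encodes a regulator of actin assembly, and Vezt, which encodes the junction protein vezatin.

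Genes of the nectin-like molecules and of nectin ligands had a peak in 4 of 9 cases (44.4%, interval 18.9 to 73.3), near the 40.7% of all coding genes. They were Cadm1 with 4, all inside its 332.1 kb, Cadm4 with 2, and Cd226 and Cd96 with 1 each. Cd226 and Cd96 encode receptors of lymphocytes. In the other junctions of the epidermis, 12 of 15 desmosome genes (80.0%, interval 54.8 to 93.0) and 11 of 18 tight junction genes (61.1%, interval 38.6 to 79.7) had a peak. A peak lay inside 8 of the desmosome genes (53.3%) and 5 of the tight junction genes (27.8%), against 13.4% of all coding genes. Among desmosome genes Pkp1 had 10, Perp 6, Dsg2 5 with 0 inside, and Dsg3 5, all inside. Several desmosomal cadherin genes are neighbours and share peaks. Among tight junction genes Pard3 had 8, and Cldn3 and Cldn4 5 each, with 0 inside. The windows of Cldn3 and Cldn4 overlap, so the same flank peak can count for both. The lists are not separate, since Jup counts as an adherens junction and a desmosome gene and Tjp1 as an adherens junction and a tight junction gene. The intervals treat genes as independent, which neighbours that share peaks are not, so they can be too narrow for such lists. The interval of the members overlaps that of each of these lists, and no difference between them was tested.

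**Figure D5:**
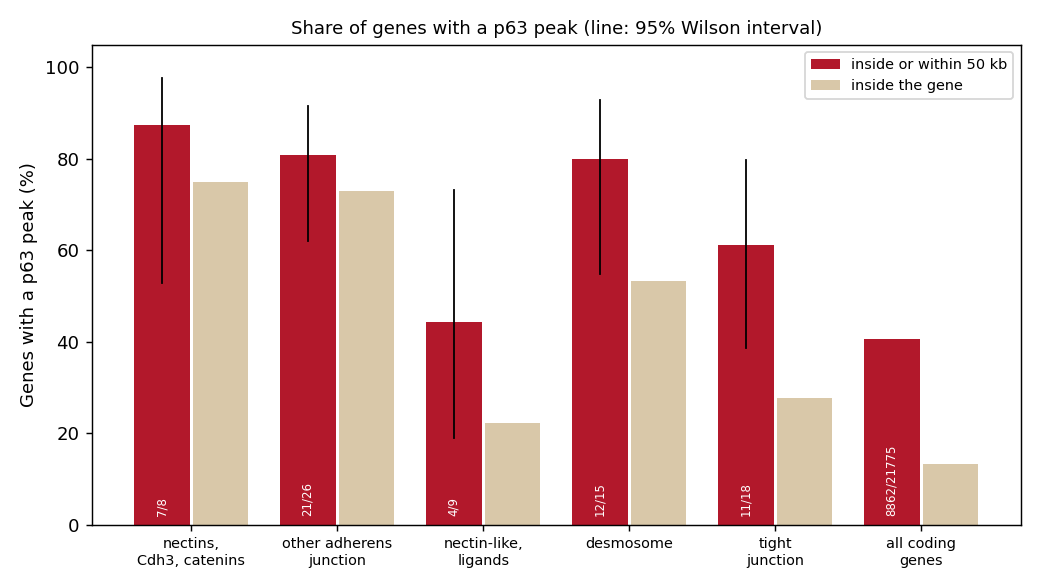
Share of genes in percent (y axis) with a p63 peak inside or within 50 kb (red) and inside the gene (tan), for the 8 members, 4 lists of related junction genes and all 21775 protein-coding genes. Black lines are 95% Wilson intervals for the red bars of the lists. The members stand at 87.5% and 75.0%, all coding genes at 40.7% and 13.4%.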

How the data were processed

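Per the labels' protocols, chromatin of MK1 and MK2 was sheared by sonication, p63 was precipitated with antibody 4A4, and libraries were read as 50 bp single ends. Reads were handled with Bowtie 1.1.1 and SAMtools 1.1 on mm10, per the submitters' processing notes. No source used here gives the peak caller or its thresholds. The authors deposited a peak list made by irreproducible discovery rate analysis of both p63 libraries, with chromosome, start and end in bp and no score. Starts were turned to 1-based. Single-end fragments blur peak edges, and width follows the caller's settings. The discovery rate step is meant to drop peaks seen in a single line, so no replicate spread exists and no test was run.

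Genes came from RefSeq (GRCm38.p6); 344 rows without a usable chromosome position (no position, or an end below 3 Mb outside Y) were left out. Peaks were counted with pandas 2.3.3 and drawn with matplotlib 3.10.9, and counting was checked on simulated data. The members and lists were chosen with earlier results of these data known. Named were the members, coding genes sharing their peaks, Cdh1, the 3 genes most like the richest member and up to 4 genes per list with most peaks, ties alphabetical, except that some genes under this rule are not reported here by name, though the list counts include them; Afdn, the adherens junction genes with no peak, the non-coding genes and the Gm46108 promoter were chosen after values were seen. Alternatives were window size, peak overlap, peak width and nearest-gene assignment, and, added after seeing the data, leaving out Nectin1.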

Additional observations from a re-analysis of the deposited data

How the results depend on the processing

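Of 40 values recomputed for the summary counts, widths and distances, 35 stayed within 1.5 times the reported count or distance, or within the interval of the median width (305 to 469 bp) or share. Of the 5 exceptions 2 came without Nectin1, a choice made after seeing the data: the share of peaks with another within 10 kb was then 50.0% in place of 67.7%, and the median distance to the nearest peak 10.9 kb in place of 4.82 kb. The others came with gene bodies alone, without flanks: the members then had 16 peaks in place of 31, the nectin-like list 2 genes in place of 4 and the tight junction list 5 in place of 11. With windows of 25 or 100 kb, or with any overlap of the peak, 7 of 8 members had a peak. The wider peaks only also gave 7. Gene bodies alone gave 6, as did counting a peak only for its nearest coding gene, which leaves Nectin2 with 0. The share of all coding genes is given only for the 50 kb window (40.7%) and for gene bodies (13.4%). At the other settings the member counts have no share to be set against, so they do not show whether the excess over all genes holds. The counts of single genes moved more: 14 of 48 changed by over 1.5 times, among them 5 with gene bodies alone, 4 with the nearest coding gene only and 3 with the wider peaks only. Ctnnb1 had 1 peak and Ctnna1 1 with gene bodies alone, in place of 4 and 2, and Nectin4 had 5 within 100 kb in place of 3. Ranks among coding genes moved beyond their counting interval in 13 of 16 cases, with all annotated genes or peaks per length. Nectin1 ranged from 7 to 13 peaks and Cdh3 from 4 to 6, while Ctnnd1 fell to 1 peak within 25 kb and Nectin3 stayed at 0 throughout. Peak heights and depth are not in the list, so a stricter threshold could be tried only through width. No paired analysis was possible because 1 list joins both lines, and for the same reason no library could be left out.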
